A study of Mus musculus with 6 samples.

Results

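The genes described here encode the ligands, receptors and SMAD proteins of transforming growth factor beta (TGF-beta) signalling, read in the kidneys of newborn mice with and without the Usp10 knockout label. The 10 members were chosen by name: the ligand genes Tgfb1, Tgfb2 and Tgfb3, the receptor genes Tgfbr1 and Tgfbr2, the signal carriers Smad2, Smad3 and Smad4, and the feedback regulators Smad7 and Skil. Probes were assigned through the RefSeq accession each array lists, and all 10 members had at least 1 probe. In all there were 16 probes, 2 for each of 6 members and 1 for each of the other 4, among 39429 probes on the array. All 10 genes passed the filter on dim probes and stood among the 21219 genes tested.

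Kidney RNA from 6 neonates, collected about 6 hours after birth, was hybridised to single-colour Agilent arrays, with 1 array per neonate. There were 3 arrays labelled USP10 KO and 3 labelled USP10 WT, all 6 labelled male. Strain, knockout allele, deleted part of Usp10 and any Cre line or shared background are not given in the sources used here. The design text calls the neonates of a genotype independent, and the question put to the arrays is how kidney expression differs with the genotype.

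TGF-beta ligands are secreted in a latent form that must be released from the matrix before it can bind. An active ligand brings together the type II receptor (Tgfbr2) and the type I receptor (Tgfbr1), which phosphorylates Smad2 and Smad3. These bind Smad4, the partner shared with bone morphogenetic protein (BMP) signalling, and the complex acts on target genes in the nucleus. Smad7 blocks the type I receptor and Skil (SnoN) holds SMAD complexes in check, and both genes are themselves induced by the pathway. In the kidney the pathway is known for matrix production and fibrosis. Usp10, a deubiquitinating enzyme, is reported to stabilise the Smad4 protein. The arrays read transcripts, not protein, SMAD phosphorylation or ligand release.

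Between 64.4% and 73.9% of the 43020 non-control spots of an array were well above background. The headers give 2 scan times: KO replicates 1 and 2 and WT replicates 2 and 3 share the first (scan 1), KO replicate 3 and WT replicate 1 the second (scan 2). Labels and signal did not always match. The single Usp10 probe, for NM_009462, read 3.64, 3.37 and 3.56 on the arrays labelled KO and 3.01, 3.13 and 2.95 on those labelled WT, so it was higher under the KO label. It may lie outside the deleted part and then checks nothing, and every direction below rests on the labels. Y-linked transcripts of Ddx3y, Eif2s3y and Uty were not above background on WT replicate 2, and Xist was above background on WT replicates 1 and 2, against the label male. For the members, values without WT replicate 2 or against WT replicate 3 alone are given beside a result that they move by over 1.5 times. Of 12 kidney markers, 11 were well above background on all 6 arrays, among them the podocyte gene Nphs1 and the tubule genes Lrp2, Slc12a1 and Aqp2, while Hsd11b2, a gene of the collecting duct, was above it on WT replicates 2 and 3 alone. None of the 11 passed. Those with the lowest p are given as KO minus WT log2 difference ± SE. They were the nephron progenitor genes Cited1 (-0.68 ± 0.20) and Six2 (-0.67 ± 0.33), Aqp2 (0.55 ± 0.27) and the podocyte gene Wt1 (0.32 ± 0.19). The KO arrays lay wholly below the WT arrays for Cited1. It was the only 1 of the 11 without overlap, where 18.2% of all genes did not overlap.

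None of the 10 members passed the test between genotypes, and the signs of the ligand, receptor and SMAD transcripts were mixed. Among them 5 had a positive and 5 a negative difference, with a median log2 difference of 0.033 against 0.028 over all genes tested. By limma with Benjamini-Hochberg adjustment over all genes, 0 of 10 passed an adjusted p of 0.05, where the background was 0.0801% of genes. At an unadjusted p under 0.05 there was 1 member, Tgfb1, where the background was 10.4% of genes (6.15% higher and 4.23% lower on the KO arrays). The arrays of the genotypes did not overlap for 2 members, Tgfb1 (KO lower) and Smad2 (KO higher), where the background was 18.2% (8.10% lower, 10.1% higher). Both counts were near the background share. Values are log2 intensities relative to each array's 75th percentile, differences are KO minus WT, and 3 arrays per group limit the precision of each. A single value compared over 3 against 3 arrays cannot go below p = 0.1 in an exact permutation test (two-sided).

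**Figure D1:**
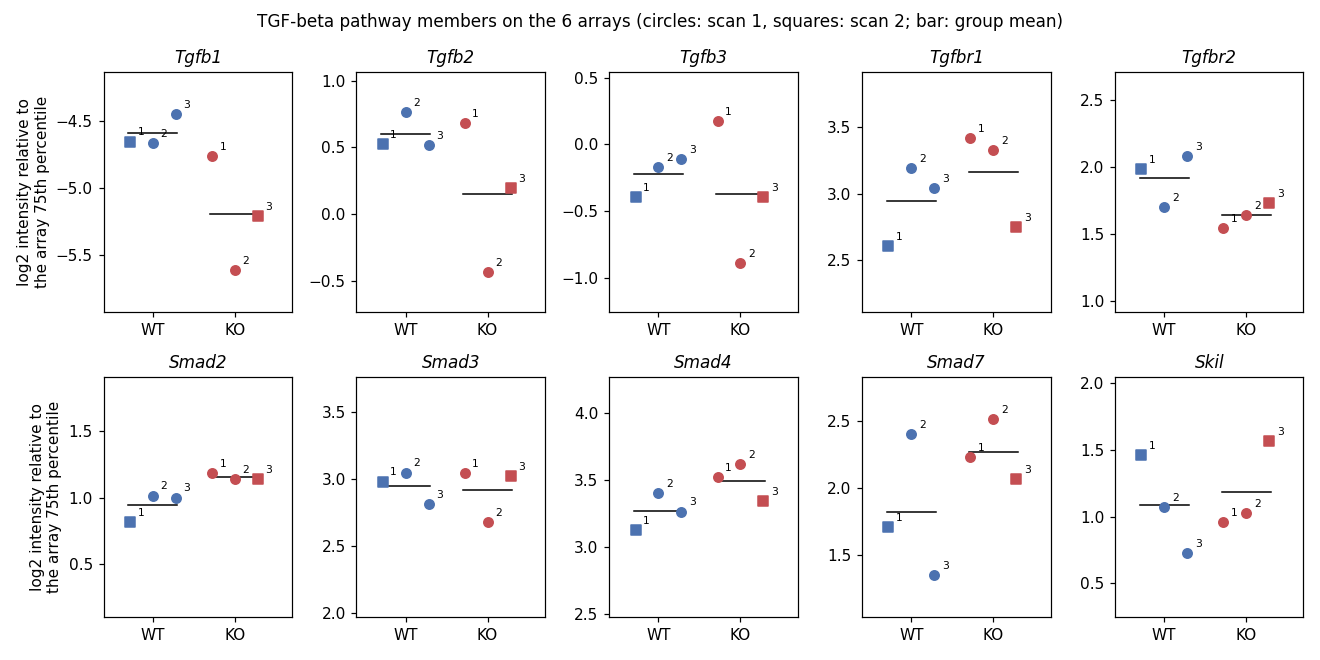
Each panel shows a member's log2 intensity relative to the array's 75th percentile (y axis, same span in every panel) on the WT and KO arrays (x axis), with replicate numbers beside the points, circles for scan 1, squares for scan 2 and bars for group means. The genotypes separate for Tgfb1 and Smad2 and overlap for the other 8 members, and KO replicate 2 is the lowest array for Tgfb1, Tgfb2 and Tgfb3.

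Sequence upstream of the start was available for 5 members in a RefSeq table of build GRCm38.p6. It is shown for the ligand genes Tgfb1 and Tgfb2 and the receptor gene Tgfbr2, which differ in promoter type. Each run is the 250 bases before the annotated start, 5′ to 3′ on the gene's strand. Capitals mark every match, on this strand or as the reverse complement, to a motif of the following kinds. The SMAD box is CAGAC, where SMAD proteins bind. The GC box, bound by SP1 and related factors, is GGGCGG. The TATA box, which places the start of transcription, is TATAAA. No match overlapped another. The Tgfb1 sequence is chr7:25686752-25687001, plus strand. The Tgfb2 sequence is chr1:186705990-186706239 and the Tgfbr2 sequence chr9:116175364-116175613, both minus strand.
Tgfb1: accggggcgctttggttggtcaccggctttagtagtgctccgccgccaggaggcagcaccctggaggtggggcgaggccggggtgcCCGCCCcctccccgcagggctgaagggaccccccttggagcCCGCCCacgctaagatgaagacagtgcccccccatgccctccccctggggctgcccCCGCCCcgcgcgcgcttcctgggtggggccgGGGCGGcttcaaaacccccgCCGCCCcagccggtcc
Tgfb2: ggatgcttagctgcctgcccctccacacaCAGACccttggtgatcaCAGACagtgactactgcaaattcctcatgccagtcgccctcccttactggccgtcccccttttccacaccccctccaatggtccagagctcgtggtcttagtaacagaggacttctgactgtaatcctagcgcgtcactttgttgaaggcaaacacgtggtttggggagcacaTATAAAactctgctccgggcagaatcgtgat
Tgfbr2: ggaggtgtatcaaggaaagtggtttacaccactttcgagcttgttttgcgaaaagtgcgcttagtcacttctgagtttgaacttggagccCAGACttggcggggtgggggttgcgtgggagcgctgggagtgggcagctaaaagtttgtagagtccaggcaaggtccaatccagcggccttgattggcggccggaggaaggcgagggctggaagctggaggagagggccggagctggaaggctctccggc

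The Tgfb1 window held 5 GC boxes, no SMAD box and no TATA box, and was 75.2% G or C. The Tgfb2 window held 2 SMAD boxes, 1 TATA box and no GC box, at 53.6% G or C, and the Tgfbr2 window held 1 SMAD box and neither of the others, at 58.4%. The Smad3 window had 2 GC boxes and no SMAD box (69.2% G or C). Of the 2 Tgfbr1 windows, the upstream start had 2 GC boxes and no SMAD box and the other start 1 SMAD box and no GC box. Over all 32851 windows of the same length in the table, 42.2% held a SMAD box, 32.7% a GC box and 12.4% a TATA box, with a median of 52.4% G or C. These matches describe the letters in the windows and say nothing of binding.

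Among the ligands, Tgfb1, the most widely expressed isoform, had the lowest p of the members. Its probe read -4.76, -5.62 and -5.21 on KO replicates 1 to 3 and -4.65, -4.66 and -4.44 on WT replicates 1 to 3. The KO arrays all lay below the WT arrays, KO replicate 1 only just so and KO replicate 2 farthest. The log2 difference was -0.61 ± 0.24 (SE; 95% confidence interval -1.17 to -0.054; adjusted p = 0.460 by limma). It was -0.64 within scan 1, -0.56 within scan 2 and -0.40 without KO replicate 2.

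This signal was close to background, and Tgfb1 entered the test through the WT arrays, where all 3 were well above it against 2 of 3 KO arrays. A gene admitted that way tends to be higher in the group that admitted it. The probe was printed 10 times per array. On KO replicate 3 only 1 of 9 usable spots was well above background and on KO replicate 2 it was 5 of 7, whereas on KO replicate 1 and the 3 WT arrays every usable spot was. The median raw intensity was 6.19 on KO replicate 2 and 8.81 on KO replicate 3, against 18.0 to 26.7 on the other 4 arrays. Spots within an array had an SD between 0.040 and 0.42. With another background correction (normexp, offset 50) and the same scaling the difference turned positive, 0.24, where the median of all genes was 0.14; with normexp and quantile normalisation it was -0.13. The sign of Tgfb1 thus turned under the first of these settings and not under the second.

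**Figure D2:**
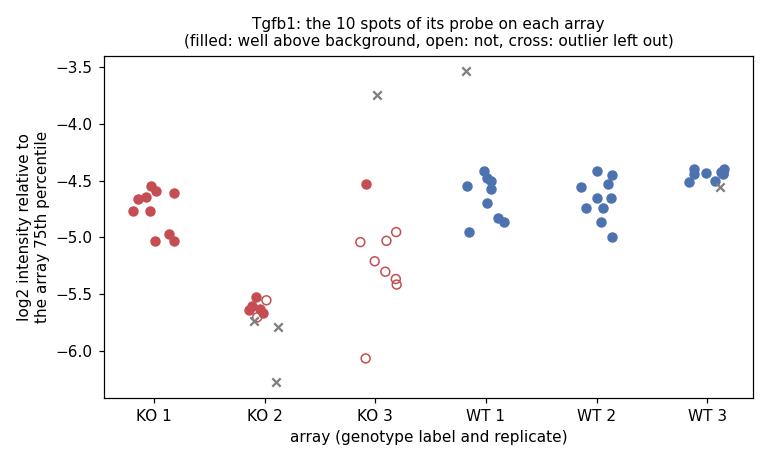
The 10 spots of the Tgfb1 probe on each array (x axis, array by genotype label and replicate; y axis, log2 intensity relative to the array's 75th percentile), filled where well above background, open where not, crosses where left out as outliers. KO replicate 3 has 1 filled spot and a wide scatter, while every usable spot of KO replicate 1 and of the WT arrays is filled.

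Cells that make Tgfb1 include macrophages, platelets and stromal cells, and their markers are given here beside it. In whole tissue, fewer cells of a type and less RNA per cell cannot be told apart. Of 11 macrophage and dendritic cell markers measured, 7 had a negative difference, with a median of -0.26, and the KO arrays lay wholly below the WT arrays for 4, where the background was 8.10% of genes. The fractalkine receptor gene Cx3cr1 had the lowest p of them (-1.58 ± 0.21, adjusted p = 0.0604 by limma, 0.0350 with scan as a block). The other 3 were Fcgr1 (-1.28), C1qc (-0.87) and C1qa (-0.77). With normexp and the 75th percentile these 4 genes stood at -0.63, -0.49, -0.62 and -0.052, in the same order. The list's summed level, on a linear scale, ranged from 11.3 to 30.7 on the KO arrays and from 11.6 to 30.7 on the WT arrays. That sum followed the bright Itgam probe, singled out after its values were seen, which read 2.24 and 2.05 on the scan 2 arrays and 3.95 to 4.61 on those of scan 1.

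Platelet markers went both ways under the main setting. Of 4 measured, Treml1 differed by 0.54 ± 0.28, Gp9 by -0.50 ± 0.28, Ppbp by -0.22 ± 0.35 and the platelet chemokine gene Pf4 by -0.0014 ± 0.17 (SE), and all overlapped between genotypes. Against WT replicate 3 alone Gp9 was -0.036 and Ppbp 0.16. Pf4 was bright (mean 1.06 in both groups), while the others were dim, with group means from -4.96 to -3.58. With normexp and the 75th percentile Treml1 was 0.45, Gp9 0.16, Ppbp 0.22 and Pf4 -0.031. The signs of Gp9 and Ppbp thus changed with the background correction. Their summed level was 2.05 to 2.42 on the KO and 2.03 to 2.46 on the WT arrays. All 8 stromal and fibroblast markers were negative, with a median of -0.46, or -0.17 without KO replicate 2, and a summed linear level of 14.4 to 25.4 on the KO and 24.3 to 29.6 on the WT arrays. The part of these cells in the Tgfb1 value was not tested.

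Tgfb2, an isoform needed for kidney and heart formation, had a brighter probe that read 0.68, -0.43 and 0.20 on the KO arrays and 0.53, 0.76 and 0.52 on the WT arrays. KO replicate 2 was low and KO replicate 1 lay inside the WT range. The KO arrays differed by -0.45 ± 0.28 (SE; interval -1.12 to 0.21; adjusted p = 0.569), and -0.16 without KO replicate 2. The dimmer Tgfb2 probe gave -0.084 ± 0.29 (SE), with KO values between -0.88 and -0.018 and WT values between -0.84 and -0.055. The probes thus differed in size, and neither passed.

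Tgfb3, the isoform of palate and lung formation, was read by a probe printed 10 times. It stood at 0.17, -0.89 and -0.40 on the KO arrays and -0.40, -0.17 and -0.11 on the WT arrays. The KO arrays spanned the whole WT range, with an SD of 0.53 against 0.15. Repeat spots within an array differed far less (SD 0.038 to 0.089), so that spread lay between arrays. This gave a log2 difference of -0.15 ± 0.28 (SE; interval -0.79 to 0.50; adjusted p = 0.852), 0.11 when KO replicate 2 was left out and -0.26 with WT replicate 3 as the sole control. On KO replicate 2, which was the lowest array for all 3 ligand genes, 39.1% of all signal came from the top 1% of spots, where the other arrays had 29.4% to 31.9%; its part in these values was not tested.

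The receptor transcripts had differences of opposite sign, and neither passed. Tgfbr1, the type I receptor kinase, read 3.42, 3.32 and 2.75 on the KO arrays and 2.60, 3.19 and 3.04 on the WT arrays. Both scan 2 arrays were below all 4 of scan 1, so the scans separated where the genotypes did not; the scans also separated for Skil, hence for 2 of 10 members, where the background was 34.9% of genes. Tgfbr1 differed between genotypes by 0.22 ± 0.25 (SE; interval -0.36 to 0.80; adjusted p = 0.745 by limma, 0.380 with scan as a block). Without WT replicate 2 it was 0.34, and against WT replicate 3 alone 0.12. Its dimmer probe gave 0.28 ± 0.19 (SE).

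Tgfbr2, the type II receptor that binds the ligand first, read 1.54, 1.64 and 1.73 on the KO arrays and 1.98, 1.70 and 2.09 on the WT arrays. KO replicate 3 lay just above WT replicate 2, and the other KO arrays lay below every WT array. The log2 difference was -0.28 ± 0.17 (SE; interval -0.69 to 0.12; adjusted p = 0.561), -0.30 within scan 1 and -0.25 within scan 2. Against WT replicate 3 alone it was -0.45. The second Tgfbr2 probe, much closer to background, gave 0.015 ± 0.23 (SE), so the probes did not share a direction.

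Smad2, which carries the signal from the receptor, read 1.19, 1.14 and 1.14 on the KO arrays and 0.82, 1.02 and 1.00 on the WT arrays. All KO arrays lay above all WT arrays, and the KO arrays were close together (SD 0.027, against 0.11 on the WT arrays). The genotypes differed by 0.21 ± 0.15 (SE; interval -0.15 to 0.57; adjusted p = 0.610), or 1.16-fold, with 0.16 within scan 1 and 0.32 within scan 2.

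Smad3, the partner that binds DNA directly, gave the smallest difference of the members. Its brighter probe read 3.05, 2.68 and 3.02 on the KO arrays and 2.98, 3.05 and 2.82 on the WT arrays, with KO replicate 2 lowest. The log2 difference was -0.033 ± 0.18 (SE; interval -0.45 to 0.38; adjusted p = 0.953), and its sign changed with the arrays used: 0.017 without WT replicate 2, 0.085 with KO replicate 2 left out and 0.10 against WT replicate 3 alone. The dimmer Smad3 probe, above background on 2 of 3 KO and all 3 WT arrays, gave -0.13 ± 0.21 (SE).

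Smad4, the shared partner whose protein Usp10 is reported to stabilise, did not differ between genotypes beyond the spread of the arrays. The brighter probe read 3.52, 3.62 and 3.35 on the KO arrays and 3.13, 3.41 and 3.27 on the WT arrays, means of 3.50 ± 0.14 and 3.27 ± 0.14 (SD, n = 3 each). The highest WT array stood above the lowest KO array. The log2 difference was 0.23 ± 0.17 (SE; adjusted p = 0.612 by limma, 0.353 with scan as a block), with 0.24 within scan 1 and 0.22 within scan 2. Its 95% confidence interval, -0.16 to 0.62, held values on both sides of 0.

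The second Smad4 probe pointed the other way. It read -0.029, 0.25 and 0.12 on the KO arrays and 0.30, -0.046 and 0.53 on the WT arrays, a difference of -0.15 ± 0.20 (SE; interval -0.61 to 0.32; adjusted p = 0.791 over all probes). Both probes list NM_008540 and were well above background on all 6 arrays. Which stretch of the transcript each probe reads is not used here, and the cause of the opposite signs was not tested.

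**Figure D3:**
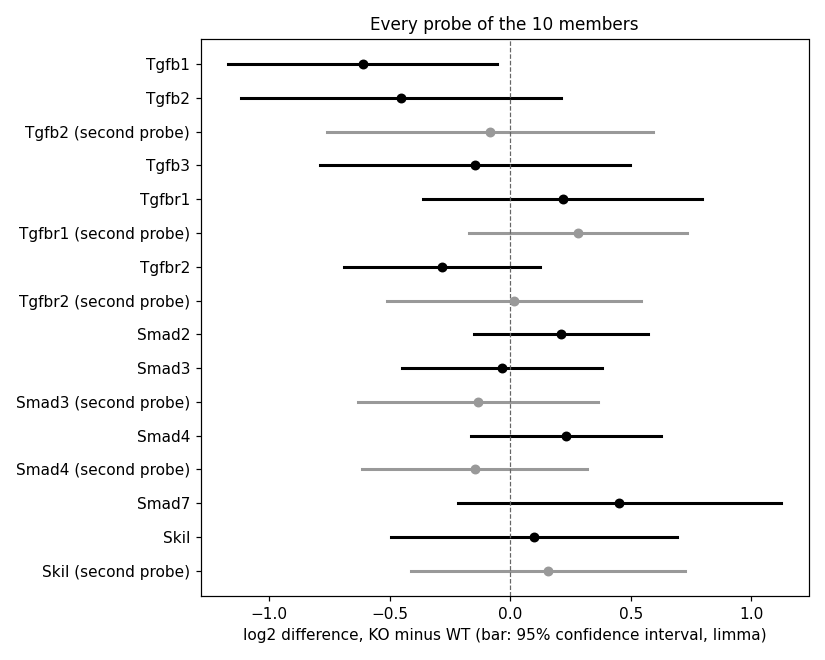
Log2 difference, KO minus WT (x axis), of each of the 16 probes of the 10 members (rows), with 95% confidence intervals from limma; black marks the probe that stood for its gene and grey the second probe. Every interval crosses 0 except that of Tgfb1, and the pairs of Smad4 and of Tgfbr2 lie on opposite sides of 0.

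Of the feedback genes, Smad7, the inhibitory SMAD, had the largest positive difference of the members. It read 2.23, 2.52 and 2.07 on the KO arrays and 1.71, 2.41 and 1.35 on the WT arrays. WT replicate 2 stood within the KO range and WT replicates 1 and 3 below it. The log2 difference was 0.45 ± 0.29 (SE; interval -0.22 to 1.13; adjusted p = 0.573), with 0.50 and 0.36 within scans 1 and 2. Without WT replicate 3 it was 0.21 (adjusted p = 0.927 by limma). Without WT replicate 2 it was 0.75 and against WT replicate 3 alone 0.93, and neither passed (adjusted p = 0.410 and 0.517 by limma).

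Skil, which encodes the repressor SnoN, followed the scans. Its main probe, printed 10 times, read 0.96, 1.03 and 1.56 on the KO arrays and 1.46, 1.07 and 0.73 on the WT arrays. The highest array of each genotype was the scan 2 array. Repeat spots had an SD of at most 0.055 within an array. Between genotypes Skil differed by 0.098 ± 0.25 (SE; interval -0.50 to 0.69; adjusted p = 0.895), and 0.16 ± 0.24 (SE) with the second probe. It was 0.46 against WT replicate 3 alone and -0.091 without KO replicate 3. Smad7 and Skil both had positive differences, neither past the threshold, and were highest on different arrays, Smad7 on KO replicate 2 and Skil on KO replicate 3.

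**Figure D4:**
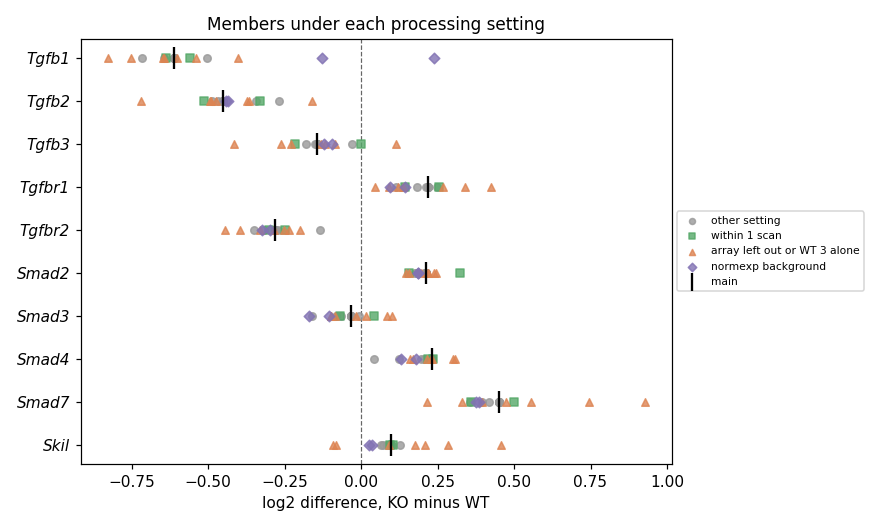
Log2 difference, KO minus WT (x axis), of each member (rows) under every processing setting: the reported value (black bar), arrays left out or WT replicate 3 alone (triangles), single scans (squares), normexp background correction (diamonds) and other settings (circles). Smad4, by its brighter probe or the mean of both, stays between 0.042 and 0.31, and its second probe alone (-0.15) is not shown. Tgfb1 runs from -0.83 to 0.24 and changes sign under normexp with the 75th percentile but not under normexp with quantile normalisation.

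Around the members, the wider pathway was read from lists made for this tissue. Of 15 genes that store or activate the ligands, 0 passed over all genes in limma, and 1 was higher and 1 lower at an unadjusted p under 0.05, where all genes gave 6.15% and 4.23%. The median log2 difference was -0.062, or 0.045 without KO replicate 2. Furin, a protease that cleaves the ligand precursor, differed by 0.60 ± 0.19 (SE; adjusted p = 0.415) and was higher on all 3 KO arrays. The integrin subunit gene Itgb6, whose product releases latent ligand on epithelium, differed by -0.64 ± 0.26 (SE; adjusted p = 0.473) and was lower on all 3. Itgb6 stood at -1.04 against WT replicate 3 alone and at -0.29 with normexp and the 75th percentile. The groups did not overlap for these 2 of the 15 genes, where the background was 18.2% of genes. Emilin1 (-0.53) and Nrros (0.34), which also act on the latent form, overlapped between genotypes; Emilin1 was -0.17 without KO replicate 2 and Nrros 0.80 against WT replicate 3 alone.

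Among co-receptors and related receptors, 0 of 11 measured genes passed in limma, with 2 higher and 0 lower at an unadjusted p under 0.05, where all genes gave 6.15% and 4.23%, and a median of 0.18. Bmpr1b, a type I receptor for BMP ligands, read -1.64, -0.98 and -1.17 on the KO arrays and -1.91, -2.16 and -2.11 on the WT arrays. The groups did not overlap for 2 of the 11 genes, Bmpr1b and Acvr1c, where the background was 18.2% of genes. The Bmpr1b difference was 0.79 ± 0.21 (SE; adjusted p = 0.350). Acvr1c, a type I receptor of the activin branch, differed by 0.89 ± 0.32 (SE; adjusted p = 0.437), or 0.15 with normexp and quantile normalisation and 1.58 against WT replicate 3 alone. Acvrl1 (-0.31), an endothelial type I receptor, and Acvr1b (0.21), an activin receptor, overlapped, and Acvr1b was 0.055 against WT replicate 3 alone. Bambi, a decoy receptor, was not well above background on any array.

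Of 14 related SMADs and nuclear partners, 0 passed in limma and 1 lay on each side at an unadjusted p under 0.05, against 6.15% higher and 4.23% lower over all genes, with a median of 0.027. Smad9, a carrier of BMP signals, differed by 0.39 ± 0.16 (SE; adjusted p = 0.475) and Ski, a repressor related to Skil, by -0.52 ± 0.22 (SE; adjusted p = 0.480), or 0.096 with normexp and the 75th percentile. The BMP-induced inhibitor Smad6 read 0.45, 0.37 and 0.39 on the KO arrays and 0.57, 0.75 and 0.66 on the WT arrays. The inhibitory SMADs thus stood on opposite sides, Smad6 at -0.26 ± 0.15 (SE; adjusted p = 0.545) and Smad7 at 0.45, neither past the threshold. Sp1, whose product binds GC boxes, differed by -0.39 ± 0.22 (SE), or -0.68 against WT replicate 3 alone.

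Ubiquitin enzymes that act on receptors and SMADs gave 0 of 13 genes past the threshold in limma, with Usp10 as the single gene under an unadjusted p of 0.05, against 10.4% of all genes, and a median of 0.010. The Usp10 difference was 0.49 ± 0.16 (SE; adjusted p = 0.416). Usp15, a deubiquitinase of the type I receptor and SMADs, differed by 0.39 ± 0.18 (SE; adjusted p = 0.502) and the ubiquitin ligase gene Nedd4l by 0.42 ± 0.20 (SE; adjusted p = 0.509). Both were higher on all 3 KO arrays than on any WT array, and against WT replicate 3 alone they stood at 0.68 and 0.76. With Usp10, the groups did not overlap for 3 of the 13 genes, where the background was 18.2% of genes. Those of Cyld (0.69 ± 0.30, SE) overlapped. The Cyld probe was dim, with group means of -4.81 (KO) and -5.50 (WT). With normexp and quantile normalisation the Cyld difference was 0.11.

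Activins, BMP ligands and their antagonists held the lowest unadjusted p of the pathway lists, although 0 of 12 measured genes passed in limma. At an unadjusted p under 0.05, 3 were higher and 1 lower, where all genes gave 6.15% and 4.23%, and the median was 0.17. The groups did not overlap for 4 of the 12, where the background was 18.2% of genes. Bmp2 read -1.60, -1.42 and -1.46 on the KO arrays and -2.17, -2.12 and -2.14 on the WT arrays, so that the groups were tight and lay apart. Its difference was 0.65 ± 0.15 (SE; adjusted p = 0.287), with 0.62 and 0.72 within scans 1 and 2. Fst, which encodes the activin trap follistatin, differed by 1.21 ± 0.31 (SE; adjusted p = 0.330), or 0.78 against WT replicate 3 alone. The BMP antagonist gene Nog differed by 1.50 ± 0.50 (SE; adjusted p = 0.424), but its probe was above background on only 2 of 3 WT arrays, so that it entered the test through the KO arrays, where it is high. With normexp and quantile normalisation the difference was 0.25. Fstl3 differed by -0.37 ± 0.16 (SE; adjusted p = 0.481), or -0.11 with normexp and the 75th percentile.

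Genes reported to respond to TGF-beta were read as its targets. They include Id1, Id2 and Id3 (0.14, -0.18 and -0.046), picked after their values were seen, which TGF-beta does not induce in every cell type. How each gene responds in newborn kidney was not tested, so the signs do not measure pathway output. Of 30 measured, 0 passed over all genes in limma, and at an unadjusted p under 0.05 there were 2 higher and 1 lower, where all genes gave 6.15% and 4.23%. By sign, 22 were negative and 8 positive, with a median log2 difference of -0.13, where 46.7% of all genes were negative and the median was 0.028. Without KO replicate 2 the list's median was -0.022, where that of all genes was 0.00018. The tilt to negative signs thus leaned on that array. The collagen gene Col1a1, a well known target picked after its value was seen, differed by -0.0029 ± 0.35 (SE).

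The cell cycle inhibitor gene Cdkn2b had the lowest p of the targets. It read -1.52, -0.53 and -1.08 on the KO arrays and -1.85, -1.70 and -2.33 on the WT arrays, with no overlap and a difference of 0.92 ± 0.29 (SE; adjusted p = 0.413). Ccn2, the connective tissue growth factor gene, read 3.42, 3.31 and 3.38 against 2.99, 3.00 and 3.06, also without overlap, a difference of 0.35 ± 0.15 (SE; adjusted p = 0.479). On the other side, Snai1, a repressor of epithelial genes, read -2.09, -2.62 and -2.66 against -1.99, -1.82 and -1.31, a difference of -0.75 ± 0.25 (SE; adjusted p = 0.424), or -1.15 against WT replicate 3 alone. Targets of the same pathway therefore lay apart in opposite directions, and none passed. For these 3 genes the genotypes did not overlap, 3 of 30 measured targets, where the background was 18.2%.

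The next targets by p overlapped between genotypes. They were the matrix gene Tgfbi (-0.51 ± 0.22), the pathway inhibitor gene Pmepa1 (-0.45 ± 0.25), the collagen cross-linking enzyme gene Loxl2 (-0.31 ± 0.21), smooth muscle actin Acta2 (-0.71 ± 0.48) and the basement membrane collagen gene Col4a1 (-0.25 ± 0.19), all as log2 difference ± SE, with adjusted p between 0.481 and 0.629. Acta2 rested on KO replicate 2 (1.65, against 2.97 to 3.88 elsewhere) and was -0.16 without it, while against WT replicate 3 alone Loxl2 was -0.0033 and Pmepa1 -0.16.

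Markers of cells that express such targets are given beside them. Of the stromal markers, all 8 negative as given beside Tgfb1, Pdgfrb, a stromal and pericyte receptor, differed by -0.53 ± 0.17 (SE; adjusted p = 0.416). Pdgfra (-0.45), Col6a3 (-0.58) and Tcf21 (-0.49) overlapped between genotypes, and the first of these stood at -0.21 and Col6a3 at -0.17 without KO replicate 2. All 7 smooth muscle and mural markers were negative, with a median of -0.20, or -0.10 without KO replicate 2. Their summed levels were 2.15 to 4.04 on the KO and 3.70 to 4.11 on the WT arrays, and 6 of the 7 were well above background on all 6 arrays. Cspg4 (-0.47) and Rgs5 (-0.35) did not overlap between genotypes, 2 of 7 markers, where the background was 18.2% of genes. Ren1 (-0.63, or -0.10 without KO replicate 2) and Mylk (-0.19) overlapped. With normexp and the 75th percentile Mylk turned to 0.14 and the median of the mural list was -0.12. Of 8 endothelial markers 6 were negative, with a median of -0.27 and summed levels of 16.5 to 21.6 and 19.3 to 23.1. The genotypes did not overlap for 4 of the 8, where the background was 18.2% of genes. At an unadjusted p under 0.05 by limma 3 were lower, where all genes gave 4.23%. These 3 were Sox18 (-0.75 ± 0.18, SE), Cdh5 (-0.54 ± 0.18, SE) and Tek (-0.59), each without overlap, and Emcn (-0.32) overlapped. The part of these cells in the target gene values was not tested. T and B cell markers had a median of -0.041 over 4 measured genes, with summed levels of 1.15 to 1.20 and 1.11 to 1.23, and Cd3g was not above background on any array. Ptprc stood at -0.070, Lck at 0.056 and Cd3e at -0.012. Of 7 adrenal markers, Cyp11a1, Cyp11b2 and Dbh were not above background on any array. The 3 measured, Cyp11b1 (-0.61), Nr5a1 (-0.25) and Th (0.069), had summed levels of 0.54 to 0.72 on the KO and 0.55 to 0.72 on the WT arrays. Cyp11b1 was above background on 1 of 3 KO and all 3 WT arrays, so it entered the test through the WT arrays. With normexp and the 75th percentile Cyp11b1 was 0.28.

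**Figure D5:**
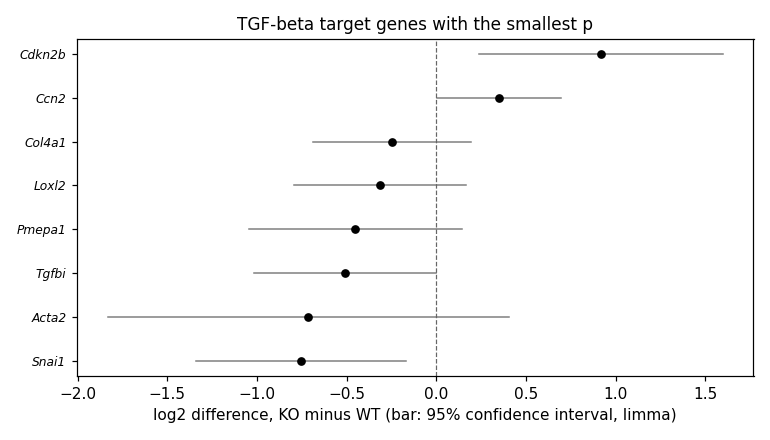
Log2 difference, KO minus WT (x axis), of the 8 TGF-beta target genes with the smallest unadjusted p (rows, ordered by value), of 30 measured, with 95% confidence intervals from limma. The values run from Snai1 at -0.75 to Cdkn2b at 0.92, and the intervals of these 2 and of Ccn2 do not cross 0.

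The genes whose profile over the 6 arrays was nearest to that of 2 members were also found, by the root mean square difference between log2 profiles centred on their own means, over 14562 named genes. For Smad4 these were Scaf8 (0.024), Dpy19l4 (0.030) and Cs (0.030), whose genotype differences were 0.22 to 0.24. For Tgfb1 they were Cthrc1 (0.047), Cmtm3 (0.048) and Caprin1 (0.052), with differences of -0.65 to -0.59. Over the 6 arrays Smad4 itself spanned 0.49 and Tgfb1 1.17 on the log2 scale.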

How the data were processed

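Per the labels' protocols, kidney total RNA was converted to Cy3 cRNA, which was read on Agilent arrays in a single colour. The authors deposited scanner output of Agilent Feature Extraction, whose version is 11.0.1.1 per the file headers but 9.1 in the submitters' processing notes; the array design names build mm9 per the file headers. The deposited intensity of a spot is its processed, background-subtracted signal, with median spot and background intensities beside it; the other deposited columns used are flags. Their number, 3 arrays per group, limits the precision.

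Control spots and outlier spots were left out, log2 of the processed signal was taken relative to the array's 75th percentile, and spots of a probe were averaged. Probes were named by accession through a RefSeq gene table (GRCm38.p6), which named 27242 of 39429 probes (69.1%). Probes stayed in when every array of 1 genotype or of both was well above background, and a gene was represented by its brightest probe. The 21219 genes were tested with limma 3.58.1 (R 4.3.3; lmFit, eBayes, Benjamini-Hochberg, threshold 0.05), with all 6 arrays and no covariate; the fit was tested on simulated data. Scan (arrays with the same scan time in the header) was tried as a block. The alternatives covered background correction, normalisation, filter, probes, variance model, blocks and arrays left out.

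The members and lists were chosen with earlier results of these data known. All members are named. Of each other list the text names the genes with the smallest unadjusted p, up to 4 (8 for targets), beside Usp10, and genes named outside this rule are checks of labels or tissue, or are said to be so. Summed marker levels are sums over a list's measured genes of the linear values relative to the 75th percentile.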

Additional observations from a re-analysis of the deposited data

How the results depend on the processing

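No member and no gene of the 6 pathway lists passed the limma threshold under any of the 19 alternatives that give a test. Smad4 kept its sign under all 21 alternatives, each read by its brighter probe or by the mean of both probes. The values ran from 0.042, with that mean, to 0.31 (adjusted p 0.353 to 0.931 by limma). Changes of filter, intensity trend or block refit the same probe and left the estimate at 0.23, so they could not turn its sign. The second Smad4 probe alone gave -0.15. The median of the members lay between -0.089 and 0.13. Signs turned for Tgfb1 under normexp with the 75th percentile (0.24), Tgfb3 (-0.42 to 0.11 with an array left out), Smad3 (-0.10 to 0.085 with an array left out, 0.10 against WT replicate 3 alone, 0.041 within scan 2) and Skil (-0.091 to 0.28 with an array left out); the cause was not tested. Tgfb1 could not be tested where all arrays had to be above background. Over all genes the calls moved from 17 to 0 with normexp and quantile normalisation, without the filter, without KO replicate 1 or 2 or any single WT array, and against WT replicate 3 alone, with 1072 to 2648 genes at an unadjusted p under 0.05; to 1 with the strict filter, 8 with the mean of probes, 27 with every probe, 30 without KO replicate 3, 36 with array weights, 45 with an intensity trend and 62 with scan as a block. Same-numbered KO and WT arrays had deviations that correlated at -0.40, 0.48 and -0.60. Numbers 1 and 3 each join arrays of different scans. KO replicate 3 and WT replicate 1, both of scan 2, correlated at 0.89. These correlations therefore cannot decide whether the numbers pair the arrays. With the replicate block 0 genes were called (1610 at an unadjusted p under 0.05) and the adjusted p of Smad4 was 0.814 by limma. Tgfb1, not above background on 1 KO array, is limited by its signal.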
